A study of Saccharomyces cerevisiae with 16 samples.

Results

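RPL11A (YPR102C) and RPL11B (YGR085C) are the gene pair that encodes ribosomal protein Rpl11 of Saccharomyces cerevisiae, and they were chosen by name and by the read count at a single uridine of RPL11A. These 2 genes cover 1391 of the 5704895 genome positions at which the deposited table lists reads, 715 for RPL11A and 676 for RPL11B. The RPL11A site was selected on its ratio of reads with and without CMCT in these libraries, so its values are given as a description with no test. The 16 PSI-seq libraries (pseudouridine site identification sequencing) came from RNA of the laboratory strain BY4741. A culture in log phase (labelled with an optical density of 0.8) was sampled before and after a heat shock of 30 min at 45 °C, and another was sampled in log phase and again in stationary phase (labelled with an optical density of 4). The headers call the log phase samples pre-HS and pre-stat. From each of these 4 harvests, natural poly(A) RNA and unmodified RNA (IVT), made from total RNA by in vitro transcription after amplification of the transcripts, were each divided into a CMCT-treated portion (+CMCT) and a mock portion (−CMCT). Each harvest gave 1 library of each RNA and treatment, and only log phase was harvested from both cultures, so p-values measure the spread between these libraries.

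Rpl11 (uL5) is a protein of the large ribosomal subunit that joins Rpl5 and 5S rRNA in the 5S ribonucleoprotein particle of the central protuberance. The pair is a remnant of the duplication of the yeast genome, and either copy supplies the protein. Pseudouridine is an isomer of uridine in which the base is attached to the ribose through carbon. CMCT leaves a bulky adduct on pseudouridine after alkaline treatment, reverse transcription stops at the adduct, and a pseudouridine is read as a stop that appears in natural RNA with CMCT but not in the mock portion or in IVT RNA. Pus1 is a pseudouridine synthase best known for modifying tRNAs.

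The site is at position 731679 of chromosome 16 in the deposited table, which gives positions without strand or base. It is nucleotide 68 of the RPL11A coding sequence, which has 525 nucleotides and is read from the strand opposite to the numbering. The submitters' processing notes name sacCer3, but RPL11A and RPL11B lie 82835 nt apart in number in the table and 82841 in the R64 gene table of RefSeq, so the exact build of the positions is unsettled and they are given as deposited. The stretch below, assembled from oligonucleotides that the study designed for RPL11A, holds nucleotides 41 to 95 of the coding sequence (731652 to 731706). It is shown because the stop described in every paragraph that follows falls on its uridine 68, the fifth letter of the 6 capitals. The capitals occur 1 time in the 109 nt of coding sequence that the oligonucleotides join up.
RPL11A nucleotides 41 to 95: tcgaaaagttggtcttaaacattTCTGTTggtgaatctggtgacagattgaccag

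The copies share much of their coding sequence, and the table shows where. At 240 pairs of positions with 50 or more reads in total, all 16 counts were the same in RPL11A and RPL11B, and every such pair lay 82835 apart. Nearly all of them fell in 1 run of 254 nt, from 731343 to 731596 in RPL11A and from 648508 to 648761 on chromosome 7 in RPL11B, and 2 fell outside it. Reads of this run stand in full at both genes and cannot be given to one of them: the run held 34.1% to 59.4% of the reads of the RPL11A window and 53.1% to 72.2% of those of the RPL11B window across the 16 libraries. With the same distance, the nucleotide of RPL11B that matches the site is 648844. Near-equal counts reached beyond this run. In sliding windows of 11 nt, the counts of the copies differed by less than 10% of their sum around 314 of the 525 coding nucleotides, and the copies stood apart mainly at nucleotides 1 to 114, 406 to 440 and 465 to 525. In 108 nt of the first of these stretches, which include the site, the summed stop profiles of the copies in mock and IVT libraries correlated with r = 0.844 at this distance and with r between 0.199 and 0.381 at the 10 distances within 5 nt of it. This correlation is across positions, which are not independent replicates.

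The heat shock mRNAs of several libraries went against their labels. In windows of 100 nt on each side of positions that the study lists for a gene, SSA4, an Hsp70 chaperone made on heat shock, had 410.7, 410.5 and 217.6 RPM (reads per 1000000 reads of the library) in the pre-HS natural +CMCT, natural −CMCT and IVT +CMCT libraries, against 2.79 to 13.9 in the other 13 libraries. HSP104, a disaggregase made on heat shock, had 348, 308 and 348 RPM in the same 3 libraries and 12.6 to 40.6 in the others. The 4 libraries labelled heat shock had 4.65 to 12.3 RPM of SSA4 and 15.2 to 31.2 RPM of HSP104, against 2.79 to 13.9 and 14.2 to 25.98 in pre-stat log phase, so 3 of the 4 libraries labelled pre-HS were high in both genes and none of the 4 labelled heat shock was. The fourth pre-HS library, IVT −CMCT, was low in both genes and correlated with its +CMCT partner with r = 0.849 over 11085 tiles of 750 nt, where the other 7 such pairs had r between 0.971 and 0.992. Labels were kept throughout, so the sign of any difference between heat shock and pre-HS rests on labels that these genes go against. Fitted differences are also given without the pre-HS libraries. Libraries held 3925245 to 25759455 reads.

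At the RPL11A site, reads piled up in natural RNA with CMCT in all 4 harvests. The library labelled heat shock had 1970 stops at nucleotide 68 with CMCT and 27 without, against 21 with CMCT and 6 without in IVT RNA. Pre-stat log phase had 636 with CMCT and 8 without in natural RNA, against 11 and 7 in IVT RNA. The library labelled pre-HS had 54 and 0, against 1 and 7 in IVT RNA, and stationary phase had 22 and 0, against 3 and 1. The site held more reads than any other position of the RPL11A window in the natural +CMCT libraries of pre-HS, pre-stat and heat shock, and it was sixth in stationary phase. In the natural −CMCT and all IVT libraries it ranked between 149 and 384.

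A share of nearby reads removes the difference in depth and in gene level between libraries. It still depends on how many reads stopped at other nucleotides nearby, and their part in differences between harvests was not tested. Of the reads that stopped within 25 nt of the RPL11A site, a stretch in which the counts of the copies stood apart, 37.5% (95% Wilson interval 30.0 to 45.6) stopped at the site in the pre-HS natural +CMCT library and 21.2% (19.8 to 22.7) did so in pre-stat. The share was 41.4% (39.99 to 42.8) in the library labelled heat shock and 21.8% (14.8 to 30.8) in stationary phase. The intervals cover counting error only. The pre-HS and heat shock libraries, from the same culture, had overlapping intervals, as did pre-stat and stationary phase, while the interval of each of the first pair lay above that of pre-stat. The stationary interval also overlapped that of pre-HS, and lay below that of the library labelled heat shock. In the 12 other libraries the share was between 0% and 2.65%. The natural −CMCT libraries with 0 reads at the site had 50 nearby in pre-HS and 22 in stationary phase. They allow a share of up to 6% and up to 13.6% by 3 reads, or 7.13% and 14.87% by the Wilson interval. In stationary phase the latter just reaches the interval of the natural +CMCT library, which starts at 14.85%.

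The nucleotide of RPL11B that matches the site behaved in the same direction at a lower level. The library labelled heat shock had 188 stops at 648844 with CMCT and 8 without, against 15 with CMCT and 3 without in IVT RNA. Pre-stat log phase had 91 and 2, against 15 and 1 in IVT RNA, and pre-HS had 11 and 1, against 5 and 8. Stationary phase had 1 read with CMCT and 0 in each of the other 3 libraries, which is too few to show a difference. Of the reads within 25 nt, 18.4% (16.2 to 20.9) stopped at this nucleotide in the library labelled heat shock, 10.3% (8.44 to 12.4) in pre-stat, 18.03% (10.4 to 29.5) in pre-HS and 2.38% (0.42 to 12.3) in stationary phase. For each harvest the RPL11A share was the higher, and the intervals of the copies did not overlap in pre-HS, pre-stat, heat shock or stationary phase. The RPL11A site was selected on these reads and the RPL11B nucleotide only by its matching position. This comparison is therefore a description and not a test of the copies. Alignment allowed up to 2 mismatches in a read, so reads of one copy could be placed on the other, and whether any of the RPL11B stops are RPL11A reads was not tested.

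**Figure D1:**
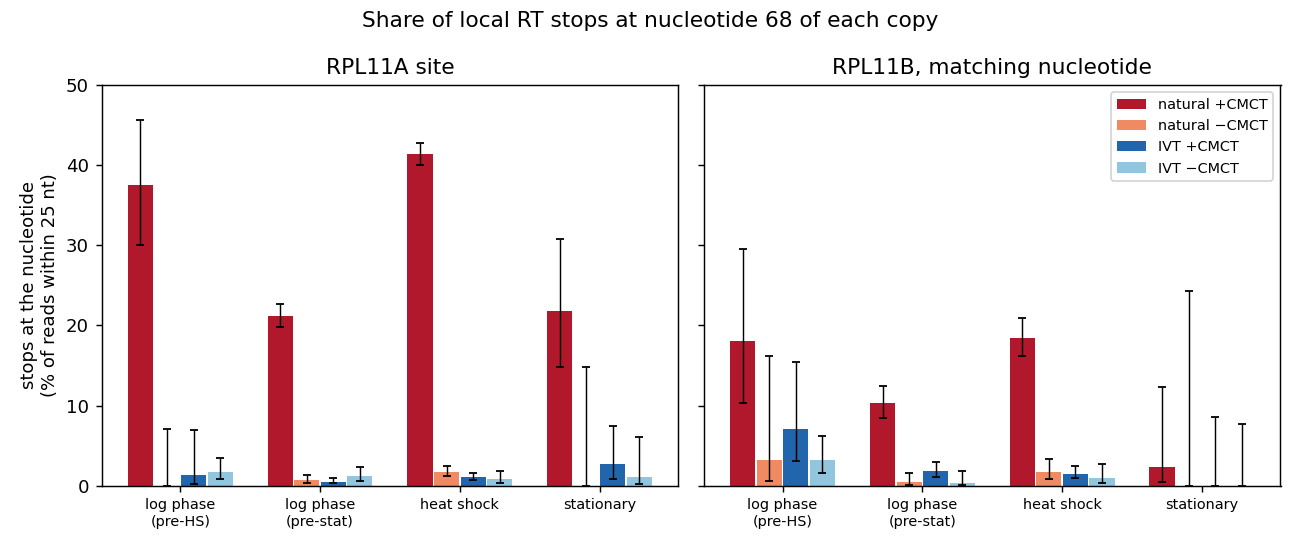
Share of reads within 25 nt of nucleotide 68 that stopped at it (y axis, percent), for RPL11A on the left and RPL11B on the right. Bars are single libraries in the 4 harvests and error bars are 95% Wilson intervals (counting error only). Natural RNA with CMCT had 41.4% at RPL11A and 18.4% at RPL11B in the library labelled heat shock, and the 12 other RPL11A bars are at 2.65% or less.

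Within 5 nt on each side, nucleotide 68 of RPL11A had the highest ratio in all 4 harvests. In the library labelled heat shock, nucleotide 67 had 205 reads with CMCT and 79 without, and nucleotide 69 had 108 and 19. The log2 ratio of reads with CMCT to reads without, with 1 added to each, was 6.14 at the site and between 0.45 and 2.45 at the 10 neighbours. In pre-stat it was 6.15 at the site and 0.17 to 4.25 at the neighbours, where the highest neighbour rested on 18 reads. In pre-HS the site had 5.78 and the neighbours −1.58 to 2.00, and in stationary phase the site had 4.52 and the neighbours −1.58 to 2.00, on at most 4 reads with CMCT. Around the RPL11B nucleotide the 10 neighbours had log2 ratios of 0.00 to 1.72 in the library labelled heat shock, where the matching nucleotide had 4.39, and of −0.32 to 2.66 in pre-stat, where it had 4.94. In pre-HS they had −1 to 1, where the matching nucleotide had 2.58. In stationary phase they had −1.58 to 2.32, and the matching nucleotide, on its 1 read, had 1 and was not the highest.

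**Figure D2:**
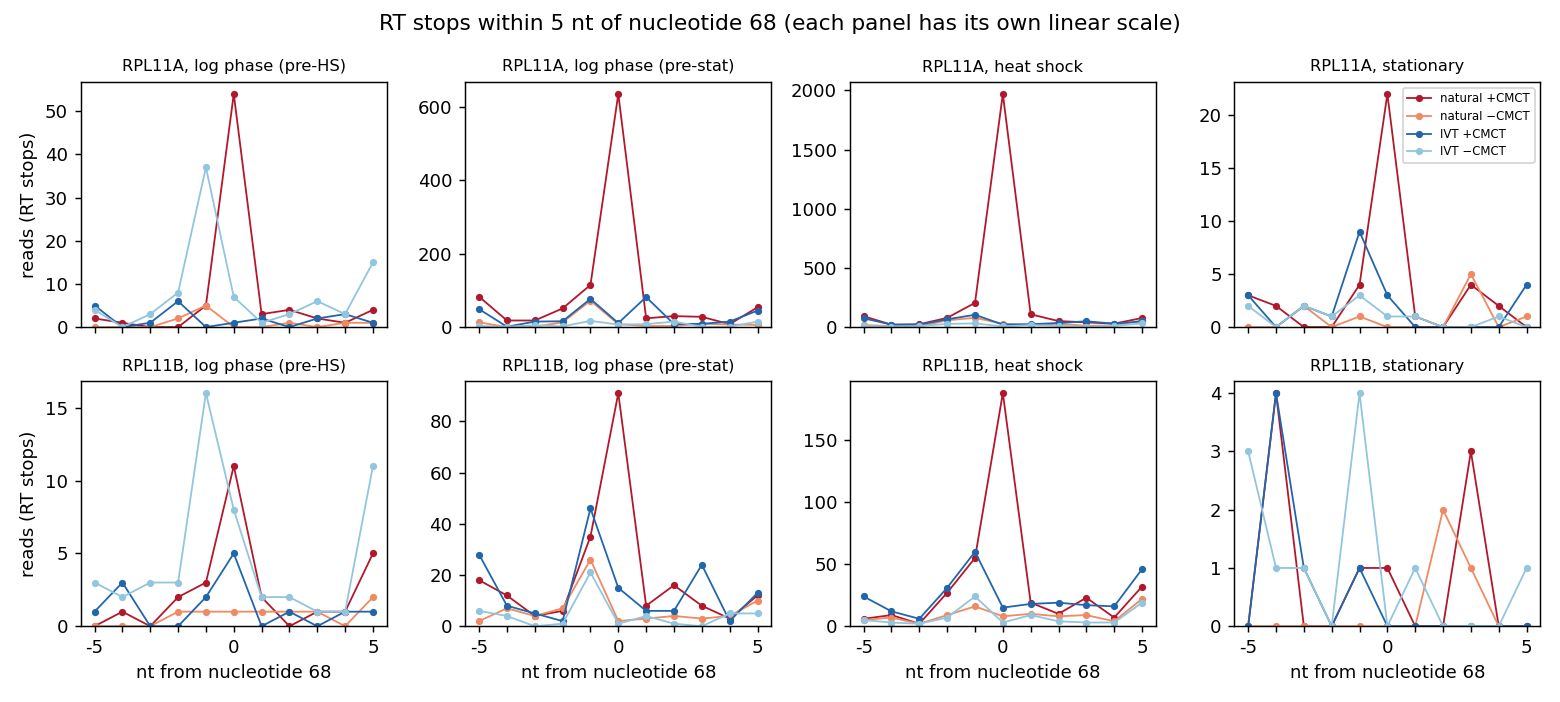
Reads that stopped at each nucleotide within 5 nt of nucleotide 68 (x axis, nt along the mRNA) in RPL11A (top) and RPL11B (bottom), with lines for the 4 libraries of each harvest and a linear y axis of its own in each panel. Natural RNA with CMCT peaks at nucleotide 68 with 54, 636, 1970 and 22 reads in RPL11A, whereas IVT RNA without CMCT in pre-HS peaks at nucleotide 67 with 37 reads.

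Ranked by this ratio among positions of the RPL11A window with at least 10 natural reads, the site was first in each harvest: of 15 positions in pre-HS, 454 in pre-stat, 547 in heat shock and 70 in stationary phase. The next position had 4.25, 5.55, 3.70 and 4.39. This ranking used the values the site was selected on. The margin was widest in the library labelled heat shock and narrowest in stationary phase, where the site had 22 reads and the runner-up, nucleotide 390 in the shared run, had 20. In IVT RNA the site had log2 ratios of −2, 0.58, 1.65 and 1.00 in the same order, against medians of −2.46, 1.67, 1.58 and −0.53 over the RPL11A positions of that library pair. The stationary value rests on 4 reads. Over the whole table, the site ranked 2 of 63840 positions in pre-HS, 19 of 190478 in pre-stat, 1 of 212996 in the library labelled heat shock and 1376 of 121378 in stationary phase. The RPL11B nucleotide ranked 2 of 13, 2 of 360 and 1 of 431 positions of its own window in pre-HS, pre-stat and heat shock, and 2336, 700 and 153 over the whole table.

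**Figure D3:**
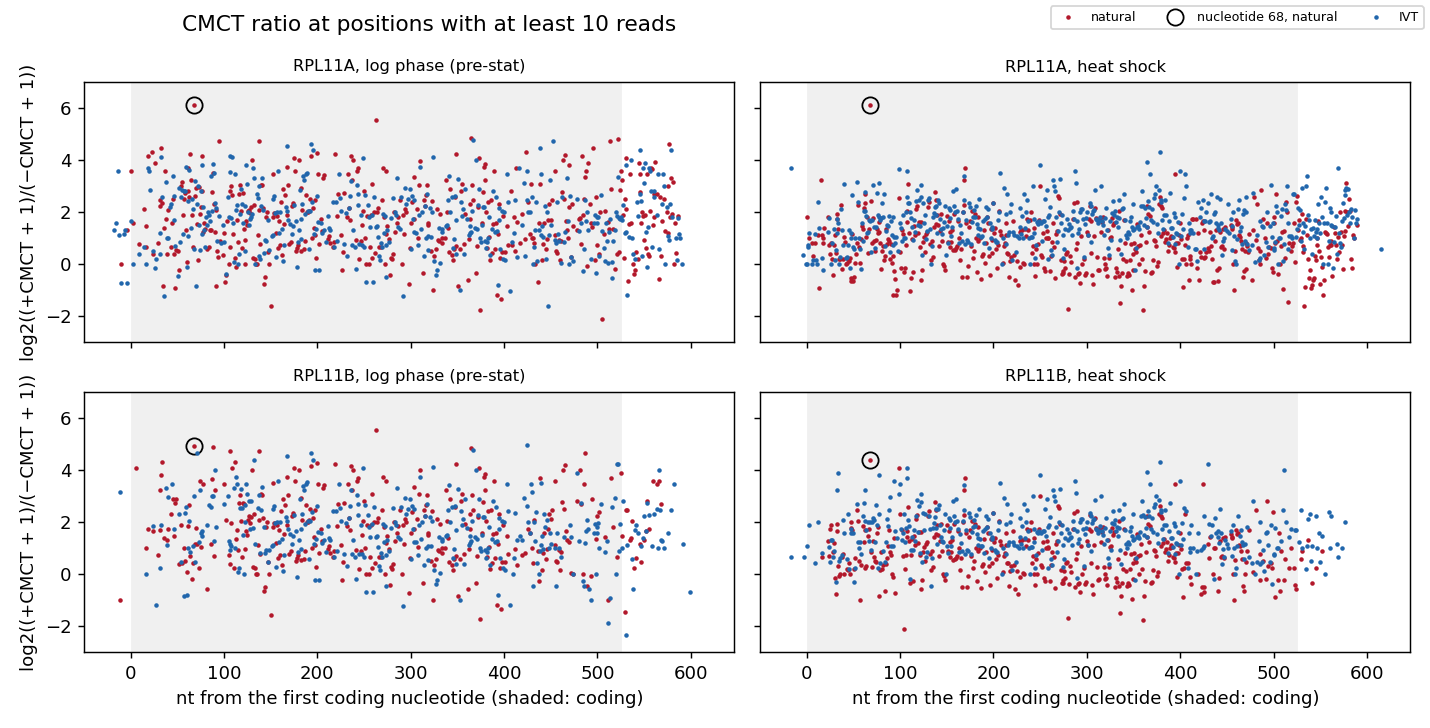
Log2 ratio of reads with CMCT to reads without (1 added to each) along RPL11A (top) and RPL11B (bottom) in pre-stat log phase and in the library labelled heat shock, at positions with at least 10 reads in natural RNA (red) or IVT RNA (blue). The circle marks nucleotide 68 in natural RNA, at 6.15 and 6.14 in RPL11A and at 4.94 and 4.39 in RPL11B.

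A ratio of 4-fold or more was common elsewhere in the genes, as it was in the whole table. In natural RNA, 2 of 15 RPL11A positions in pre-HS, 187 of 454 in pre-stat, 53 of 547 in heat shock and 47 of 70 in stationary phase had a log2 ratio of 2 or more, against 10.5%, 30.6%, 11.3% and 63.4% of all positions with at least 10 reads. For RPL11B the counts were 2 of 13, 146 of 360, 40 of 431 and 29 of 43. In IVT RNA the RPL11A counts were 0 of 177, 178 of 450, 163 of 550 and 0 of 110, and the RPL11B counts 0 of 150, 141 of 370, 138 of 460 and 0 of 71, against 30.3%, 39.3%, 29.5% and 0.798% of all positions. The ratio was not scaled to the totals of the libraries. The +CMCT library was larger than its partner by 2.47 on the log2 scale in natural stationary RNA and smaller in stationary IVT RNA, at −0.54. Both genes were near the whole table's share in natural heat shock RNA (9.69% for RPL11A and 9.28% for RPL11B) and above it in natural pre-stat RNA (41.2% and 40.6%). In pre-HS IVT RNA, where both had 0 positions past the fold, the −CMCT library is the one that differed from its partner.

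No position other than nucleotide 68 was among the 5 highest in more than 1 harvest in either gene. The study also lists nucleotides 365 and 366 of RPL11A, both in the shared run. Nucleotide 366 had 18 reads with CMCT and 0 without in pre-HS natural RNA, and nucleotide 365 had 86 and 2 in pre-stat, where its log2 ratio of 4.86 ranked 3 in the gene. Those reads stand equally at 648546 and 648547 of RPL11B, and neither gene can be named as their source. Nucleotide 263, with 46 and 0 in pre-stat, and nucleotide 170, with 12 and 0 in the library labelled heat shock, came second in RPL11A in 1 harvest each and are also in the shared run. Among the 5 highest positions of each harvest in RPL11A, nucleotide 68 was the only one that appeared in all 4. It was selected on this ratio in these libraries, so its return is a description and not a test of reproducibility.

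The ratio was set beside the bases of 179 nt of RPL11A that the oligonucleotides cover, 109 around the site and 70 at nucleotides 394 to 463, with the site left out and the numbering fixed by nucleotide 68. In pre-stat the median log2 ratio of natural RNA was 2.08 at 36 uridines, 2.15 at 40 adenosines, 0.97 at 38 guanosines and 0.49 at 28 cytidines. In IVT RNA of pre-stat the medians were 2.28 at 32 uridines, 2.13 at 40 adenosines, 1.86 at 40 guanosines and 1.03 at 30 cytidines. In the library labelled heat shock the uridines had a median of 1.16 over 41 positions in natural RNA and 1.87 over 39 in IVT RNA. The natural medians there were 1.26 at 29 cytidines, 0.88 at 55 adenosines and 0.23 at 42 guanosines, so the order of the bases was not that of pre-stat. The IVT medians there were 1.25 at 34 cytidines, 1.43 at 53 adenosines and 1.63 at 41 guanosines. The highest other uridine of the 179 nt had 3.08 in the library labelled heat shock (nucleotide 109), against 6.14 at uridine 68. In pre-stat it had 4.75 (nucleotide 138, on 26 reads), against 6.15. Uridine 68 was selected on this ratio and ranked first in its whole window. That no other uridine reached it follows from that ranking and is no further result.

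The difference between natural and IVT RNA in the effect of CMCT was fitted with edgeR's quasi-likelihood method at 467058 positions with at least 10 natural reads, over the 12 libraries of the log phase and heat shock harvests. At the RPL11A site the log2 difference was 6.29 (SE 0.93), given without a test because the site was selected on these reads. From the counts themselves, not scaled to library totals, the natural log2 ratio exceeded the IVT ratio by 7.78 in pre-HS, 5.56 in pre-stat and 4.49 in the library labelled heat shock (5.94 ± 1.68, SD, n = 3 harvests). Without pre-HS, whose IVT −CMCT library differed from its partner, the mean was 5.02. In stationary phase the excess was 3.52, where the log2 ratio of library totals was 2.47 in natural and −0.54 in IVT RNA. By this difference the site ranked 1 in its window in pre-HS, pre-stat and heat shock, and 33 of 70 positions in stationary phase. At the matching RPL11B nucleotide the fitted log2 difference was 3.23 (SE 1.31, edgeR adjusted p = 1 over all positions, unadjusted p = 0.0139), so it did not pass the test. Its differences by harvest were 3.17, 1.94 and 2.39 (2.50 ± 0.62, SD, n = 3), higher in natural RNA in each of the 3. By the same test 0.00278% of positions, 13 of them, were called higher in natural RNA and 40 lower. Without the pre-HS libraries 3 were called higher and 13 lower, and the fitted difference was 5.38 at the RPL11A site and 2.38 at the RPL11B nucleotide. Without the heat shock libraries 0 were called higher and 10 lower.

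Both copies were lowest in natural RNA of stationary phase, low in 3 of the 4 pre-HS libraries, and close in level between the libraries labelled heat shock and pre-stat log phase. The windows of the copies share the reads of the shared run. RPL11A had 1287 RPM in the heat shock natural −CMCT library, against 135 in pre-HS and 1236 in pre-stat log phase. RPL11B had 914 RPM, against 120 and 945. The 2 log phase libraries thus lay 9.13-fold apart for RPL11A and 7.88-fold apart for RPL11B, and the library labelled heat shock lay beside pre-stat. In natural +CMCT RNA, RPL11A had 1597 in heat shock, against 164 and 1442 in log phase, and RPL11B had 1069, against 137 and 1115. In IVT −CMCT RNA pre-HS had 1084 RPM of RPL11A, close to 1047 in heat shock, whereas pre-HS IVT +CMCT had 121. Stationary phase was lowest in natural RNA: RPL11A had 70.4 RPM without CMCT and 79.0 with it, and RPL11B had 45.3 and 54.5. Fewer copies of the mRNA in a cell and a larger share of other RNAs in the library cannot be told apart from these counts.

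**Figure D4:**
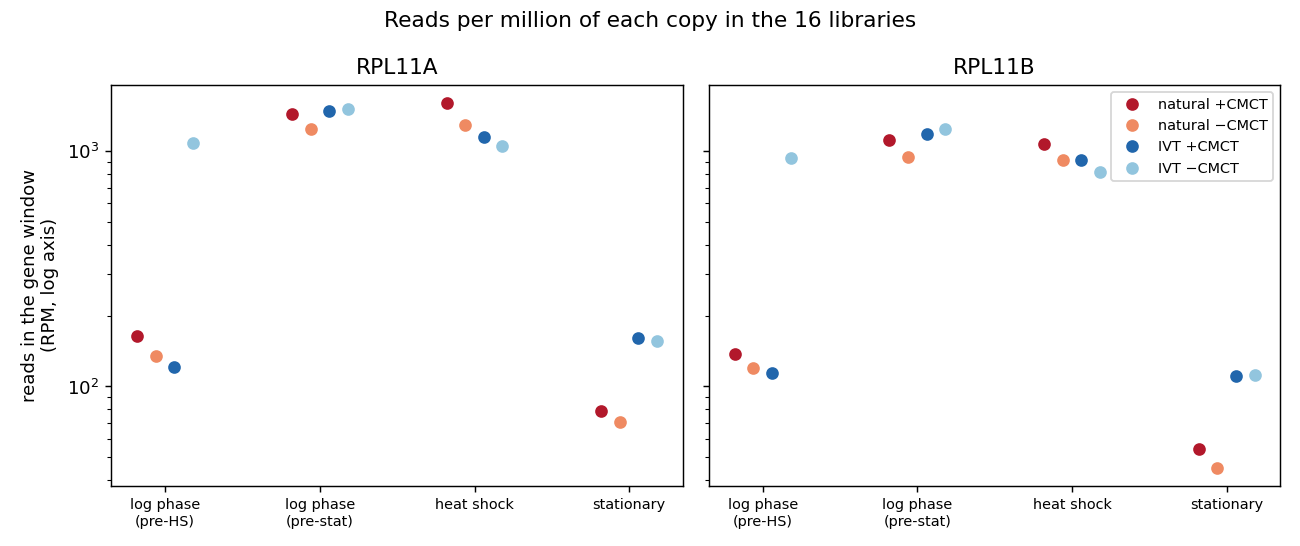
RPM in the RPL11A (left) and RPL11B (right) windows in each of the 16 libraries (log axis), colored by RNA and treatment. RPL11A in natural −CMCT RNA is at 135 in pre-HS, 1236 in pre-stat, 1287 in heat shock and 70.4 in stationary phase, and in pre-HS the IVT −CMCT point stands apart from the other 3.

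In an edgeR quasi-likelihood fit over 15334 features (tiles of 750 nt and the windows of both genes) in the 4 natural −CMCT libraries, neither gene passed. Heat shock minus log phase was 0.95 on the log2 scale for RPL11A (SE 1.23, adjusted p = 1.00) and 0.82 for RPL11B (SE 1.20, adjusted p = 1.00). The sign of both values rests on the pre-HS and heat shock labels, which SSA4 and HSP104 go against: the library labelled heat shock lay 9.51-fold above the library labelled pre-HS for RPL11A and 7.62-fold above it for RPL11B. Stationary minus log phase was −2.27 for RPL11A (SE 1.42, adjusted p = 0.313) and −2.54 for RPL11B (SE 1.41, adjusted p = 0.265). No feature was called in either comparison (0% each), with 49 and 4546 features at an unadjusted p under 0.05, and DESeq2 called 0 and 1271. The only replicates in this fit are the log phase libraries. Both windows entered it with the reads of the shared run, so the values of the 2 genes are not independent. Without the pre-HS library, the differences were 0.09 and −0.02 for heat shock and −3.13 and −3.38 for stationary phase in RPL11A and RPL11B, values with no test.

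Other ribosomal protein genes were low in the same 2 natural −CMCT libraries. In windows of 100 nt around the positions the study lists for 99 other ribosomal protein genes, a list that the study drew from these samples, the pre-HS natural −CMCT library was lower than pre-stat by 1 or more on the log2 scale in 99 of 99, with a median of −3.04, against 15.3% of tiles and a tile median of −0.09. In windows of the same kind RPL11A and RPL11B had −3.22 and −3.11. Stationary phase was lower than pre-stat in 99 of 99, with a median of −3.71, against 51.9% of tiles and a tile median of −1.10, and RPL11A and RPL11B had −4.64 and −4.75. The library labelled heat shock was lower than pre-stat in 0 of the 99, with a median of 0.02, against 0.875% of tiles, and RPL11A and RPL11B had −0.03 and −0.34. RPL5, whose protein binds 5S rRNA beside Rpl11, had 412 RPM in the heat shock natural −CMCT library, against 59.1 in pre-HS and 614 in pre-stat, and 25.1 in stationary phase.

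RPL11A had more reads than RPL11B where the copies stood apart. At 210 coding nucleotides in the stretches whose counts differ between the copies, chosen after the counts were seen and with nucleotide 68 left out, natural −CMCT RNA of the library labelled heat shock had 3815 reads of RPL11A and 1325 of RPL11B, so that RPL11A took 74.2% of them (95% Wilson interval 73.0 to 75.4). The share was 73.0% (71.5 to 74.5) in pre-stat, 59.1% (52.6 to 65.3) in pre-HS and 66.7% (58.3 to 74.1) in stationary phase. In IVT −CMCT RNA it was 64.7% in heat shock, 60.4% in pre-stat, 60.3% in pre-HS and 60.4% in stationary phase.

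At the same 210 nucleotides natural RNA had the higher RPL11A share in heat shock and pre-stat, with and without CMCT, and in these 4 pairs the intervals did not overlap. With CMCT the shares were 74.7% in natural and 63.5% in IVT RNA of the library labelled heat shock, and 71.3% and 64.6% in pre-stat. In pre-HS and stationary phase the intervals of natural and IVT RNA overlapped in each pair. There the order was not the same in all: natural RNA had 57.1% and IVT RNA 49.3% in pre-HS with CMCT, and natural RNA had 56.4% and IVT RNA 61.3% in stationary phase with CMCT. The lowest share, 49.3% (44.3 to 54.4), in pre-HS IVT +CMCT RNA, was the 1 whose interval includes equal amounts. The stops at nucleotide 68, where RPL11A was selected on these reads, were further apart. With CMCT they were 1970 in RPL11A and 188 in RPL11B in the library labelled heat shock, and 636 and 91 in pre-stat. Counting over all 268 nucleotides with any difference in counts, the natural −CMCT shares were 66.6% in heat shock and 63.4% in pre-stat, against 60.6% and 60.0% in IVT RNA. With CMCT the shares over these 268 were 65.1% in natural and 59.6% in IVT RNA of the library labelled heat shock. In pre-stat with CMCT they were 62.4% and 62.2%, and the intervals overlapped, so the separation of that pair depends on the nucleotides chosen.

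**Figure D5:**
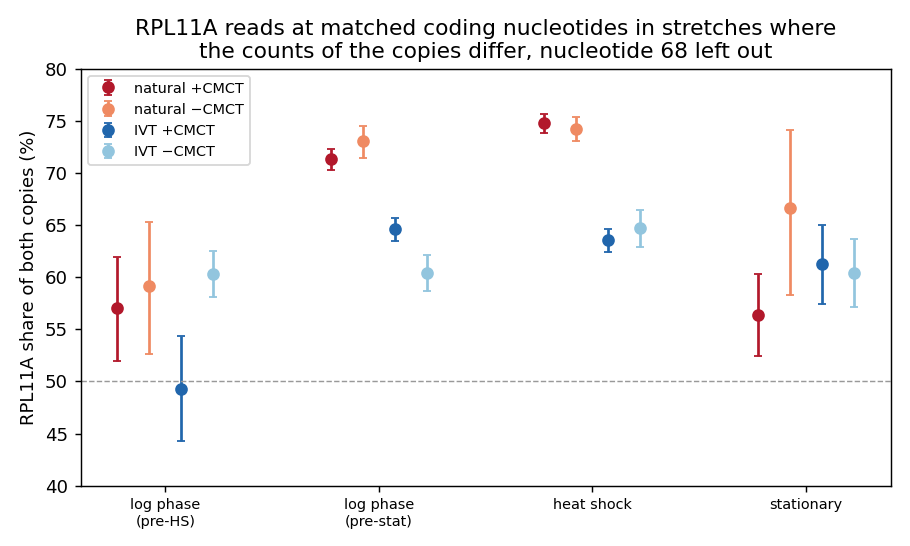
RPL11A reads as a percent of RPL11A and RPL11B reads (y axis, which does not start at 0) at 210 matched coding nucleotides in stretches where the counts of the copies differ, nucleotide 68 left out, for the 16 libraries. Points are single libraries with 95% Wilson intervals (counting error only), and the dashed line marks equal amounts. Natural RNA of the library labelled heat shock is highest, at 74.7% with CMCT and 74.2% without, and pre-HS IVT +CMCT RNA is lowest, at 49.3%.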

How the data were processed

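The deposited table holds raw counts: per the paper's methods, the authors aligned reads with Bowtie (version 0.12.5 in the submitters' processing notes, build sacCer3) allowing up to 2 mismatches, and counted the reads that ended at each position, without strand. Those methods assign reads with several loci at random to 1 of them, but the table holds equal counts at both copies of the shared run. Columns were matched to groups by header; the log phase columns carry no replicate number. Positions with the same 16 counts (50 or more reads) entered the fits at positions once. The main fit of mRNA levels kept the full windows of both genes, each with the reads of the shared run. Copy shares used coding nucleotides where counts in 11-nt windows differed by 10% or more of their sum, a limit set after the counts were seen. Ratios had 1 read added to each count. Fits used edgeR 4.0.16 (TMM, quasi-likelihood, Benjamini-Hochberg) in R 4.3.3, with harvest by RNA as blocks at positions, and DESeq2 1.42.0 as an alternative. The edgeR fits of positions and of mRNA levels were tested on simulated data, and DESeq2 was not. Tiles of 750 nt replaced annotated genes because the build is unsettled. The genes named were the pair, the site and its matching nucleotide with 5 neighbours on each side, the 5 highest positions per harvest, and RPL5, SSA4, HSP104 and ribosomal protein genes with listed positions; RPF2, RRS1, SYO1, PUS1, HSP12, HSP26 and the strain markers were not analysed here. Members and lists were chosen with earlier results of these data known. Depth was 3925245 to 25759455 reads, and intervals and floors cover counting error only.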

Additional observations from a re-analysis of the deposited data

How the results depend on the processing

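The RPL11A site kept its direction under the 9 alternatives tried, with fitted log2 differences between natural and IVT RNA of 5.38 to 7.36, and the RPL11B nucleotide stayed positive and short of the threshold under its 9, at 2.38 to 3.68, where an adjusted p was given (DESeq2 gave none). Without the replicate block of harvest and RNA the values were 6.01 and 3.43; the pairing here is of the +CMCT and −CMCT portions of 1 RNA, so both blocked values stand as main. Positions called higher in natural RNA, 13 of those tested with 40 lower, became 3 (13 lower) without pre-HS, 11 (128 lower) without pre-stat and 0 (10 lower) without heat shock. They became 1 with at least 3 natural reads (7 lower) or at least 50 (81 lower), 11 with stationary libraries added (1 lower), 10 without the block (127 lower), 13 by library sizes alone (16 lower), and 33 of 15636 with DESeq2 (225 lower). For mRNA levels, leaving out 1 log phase library moved heat shock minus log phase between 0.0876 and 3.23 for RPL11A and between −0.0193 and 2.91 for RPL11B, and stationary minus log phase between −3.13 and 0.0109 for RPL11A and between −3.38 and −0.45 for RPL11B; the low heat shock values are without pre-HS and the high ones without pre-stat. With the culture as a replicate block the heat shock differences were 3.23 and 2.91, equal to those without pre-stat by construction. Natural over IVT of the same harvest turned the stationary differences to 0.0742 and 0.0238. IVT RNA was made from total RNA of each harvest, so this alternative takes out any change in level that IVT RNA shares. In IVT −CMCT RNA pre-stat lay 9.68-fold above stationary phase for RPL11A and 11.06-fold above it for RPL11B. The cause was not tested. Stationary calls over all features went to 1271 with DESeq2, 1879 in +CMCT libraries and 2630 with positions unique to 1 locus, against 0; heat shock had 0 in each. The RPL11A site ranked 2 in pre-stat with 0.5 reads added, and in stationary phase 3 with 10 reads added and 33 by the natural minus the IVT ratio. In alternatives chosen after seeing the data, the RPL11B rank lay between 1 and 8 in pre-HS, 1 and 54 in pre-stat and 1 and 5 in heat shock. The ranks furthest from 1 in each harvest came from the natural minus the IVT ratio. Stationary phase, with 22 and 1 stops at the site and its match, sets the limit of depth.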
